A study of Mus musculus with 6 samples.

Results

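Of 112926 regions that carried an H3K27ac peak in C2C12 cells at any stage, 1915 (1.70%) had a peak during proliferation and at 36 h of differentiation and none at 72 h. These are termed early regions. They were found by merging the peaks of the 3 stages wherever they overlapped by at least 1 bp, and by taking each merged region that held a proliferation peak and a 36 h peak but no 72 h peak. The regions were thus chosen by the presence and absence of called peaks at the 3 stages, and neither that pattern nor its count is a finding. Peaks at all 3 stages were present in 28908 regions, termed retained regions, which serve as the main comparison. Early regions made up 6.21% (95% Wilson interval 5.95 to 6.49%, counting error only) of the 30823 regions with peaks in proliferation and at 36 h.

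C2C12 is a mouse myoblast line that leaves the cell cycle in differentiation medium and fuses into multinucleated myotubes. H3K27ac, acetylation of lysine 27 of histone H3, is placed by the acetyltransferases p300 and CBP and removed by histone deacetylases. It marks promoters and enhancers in use, and enhancers of the proliferating myoblast are known to lose it while those of the muscle programme gain it. A narrow peak usually covers the nucleosomes beside 1 accessible site, whereas wide or crowded peaks are typical of strongly used promoters and of enhancer clusters.

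The series, titled for the role of TAp63 in myogenesis, holds 6 samples of C2C12 cells: an H3K27ac ChIP library and an input library for proliferation, for 36 h and for 72 h of differentiation. TAp63 is the isoform group of the transcription factor p63 that carries the transactivation domain. The labels give no genotype or agent, and only the stage differs between the groups. Each H3K27ac library was made from DNA pooled over 4 ChIP assays, so every stage was represented by 1 library, the spread between assays could not be measured, and no test between stages or p-value was possible. The proliferation, 36 h and 72 h lists held 57101, 89717 and 97144 peaks, covering 31.3, 56.0 and 63.7 Mb of the mm9 genome. The relative ChIP depth recovered from the deposited values of the lists was 1.0, 1.2 and 1.1 in the same order. Positions are given on mm9. No annotation of that build was used, so the regions are given by position and not linked to genes, and the identity of the cells could not be checked against marker genes.

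The early regions were short and weak within each list. Their width was 390 bp at the median (interquartile range 290 to 537 bp, highest 2423 bp), against 1119 bp for retained regions. A single 36 h peak was present in 1818 of them and a single proliferation peak in 1834, and 1753 had exactly 1 peak in each list. The authors' fold enrichment at the summit (ChIP over local background, compared only within a list) had a median of 4.91 at 36 h (interquartile range 4.16 to 5.92), which lay at percentile 33.7 of all 36 h peaks. In proliferation it was 4.87 (4.17 to 5.95), at percentile 37.4 of that list. Retained regions had a median fold of 9.42 at 36 h and 6.98 in proliferation, at percentiles 77 and 68.7. Regions called in proliferation and at 72 h but not at 36 h were close to early regions, at 433 bp and a proliferation fold of 5.07 (percentile 41.2). Regions called only at 36 h had 212 bp and a fold of 4.47 (percentile 21.8), and those called only in proliferation 212 bp and 4.51 (percentile 28.1). Short width and low fold were thus not particular to the early regions. The authors' −log10 q, which is larger for clearer peaks, was under 5 at 48.0% of early regions and 9.26% of retained regions at 36 h. In proliferation it was under 5 at 50.1% of early and 17.8% of retained regions.

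In fragments the summits were modest. A median of 16 fragments (range 10 to 102) stacked at the summit of an early region at 36 h and 18 (range 9 to 93) in proliferation. Retained regions had 35 at 36 h and 29 in proliferation. The local background of early regions at 36 h was at the median 1.0 times the lowest background common in that library, here called the genome background. In proliferation it was 1.60 times, and it exceeded the genome background at 88.0% of early regions. Retained regions had 1.06 and 1.98 times at 36 h and in proliferation. In proliferation the background exceeded the genome background at 92.3% of retained regions. The share was 87.0% for regions called in proliferation and at 72 h but not at 36 h.

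The share of regions without a 72 h peak was highest where the earlier peaks were weakest. When the 30823 regions were ranked by their 36 h fold and divided into 10 equal groups, early regions made up 24.2% of the weakest group, 17.7% of the next and 10.4% of the one after it. The share was 5.48%, 2.72% and 1.17% in the 3 groups that follow, and it was 0.324% (10 regions) and 0.0973% (3 regions) in the next. No early region was found among the 3082 and 3083 regions of the 2 strongest groups, a count of 0 that allows a share of up to 0.0973% at 3 counts of the total and of up to 0.124% by the Wilson interval. The authors' fold of the strongest early region at 36 h was 14.2. Ranking by the proliferation fold gave a flatter decline, with 14.5% in the weakest group, 5.87% in group 5 and 0.130% in the strongest. This gradient describes the lists. The chance of a missed call at 72 h also rises as peaks weaken, and how much of the gradient it accounts for was not tested.

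**Figure D1:**
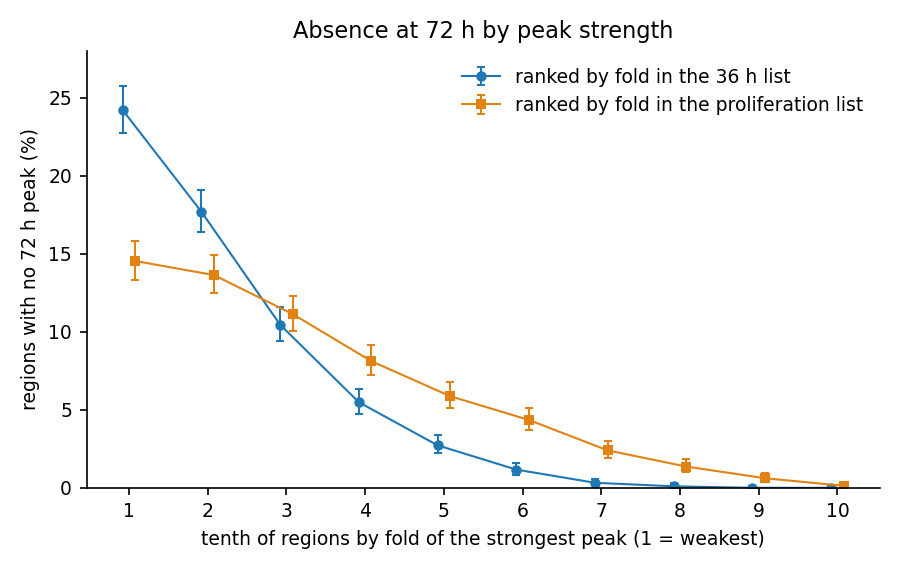
Share of regions with peaks in proliferation and at 36 h that had no 72 h peak (y axis, %), in 10 equal groups by the authors' fold in the 36 h list (circles) or in the proliferation list (squares), from weakest to strongest along the x axis. Bars are 95% Wilson intervals for counting error. The share was 24.2% in the weakest group at 36 h and 0 in the 2 strongest.

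The signal at the early regions was lower at 36 h than in proliferation at the median. Summit fragments above local background, divided by the relative ChIP depth, gave a 36 h over proliferation ratio of 0.761 at the median (interquartile range 0.594 to 0.975). The signal was at least 1.5-fold lower at 36 h in 710 early regions (37.1%) and at least 1.5-fold higher in 60 (3.13%). Of all 30823 regions, 20.2% were lower and 18.6% higher by this measure. In retained regions the median ratio was 1.04. Strength and the calling limits bear on this comparison. At the genome background a call needed 9 fragments both at 36 h and in proliferation, with a relative depth of 1.2 at 36 h and 1.0 in proliferation. At the background that 95% of a list's peaks did not exceed, it needed 15 at 36 h and 18 in proliferation. How far these limits set the ratio was not tested. The 4917 retained regions whose 36 h fold fell within the interquartile range of the early regions had a median ratio of 0.697, with 45.6% at least 1.5-fold lower. The 7828 retained regions matched in the same way on proliferation fold had a median ratio of 1.16, with 12.4% lower. The early regions thus lay between both matched sets, and a ratio under 1 was shared with retained regions that were as weak at 36 h. The ratio was 0.757 in early regions with no 72 h peak within 5 kb and 0.762 in those with a 72 h peak within 1 kb.

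The summits of both stages lay close together within an early region. The 36 h and proliferation summits were 76 bp apart at the median (interquartile range 34 to 143.5 bp), and in 1457 regions (76.1%) they lay within 147 bp, the length of the shortest peak in the lists. Retained regions had a median of 77 bp, with 67.2% within that distance. The length under peaks was 264 bp at 36 h and 269 bp in proliferation at the median. The 36 h peaks were the longer ones in 884 early regions (46.2%) and the proliferation peaks in 1019, with 12 equal. In retained regions 878 bp lay under 36 h peaks and 662 bp under proliferation peaks, and the 36 h peaks were longer in 70.2%.

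The number of early regions whose earlier signal, if held, would be expected to give a 72 h call was computed. The fragments expected at 72 h were taken from the summit at an earlier stage, the relative depth and the median change of signal between the stages at retained regions, which was 1.15-fold for 72 h over 36 h and 1.18-fold for 72 h over proliferation. A 72 h call needed 8 fragments at the genome background of that library and 14 at the background that 95% of its peaks did not exceed. The background assumed at 72 h was also added to each expected number. With the higher background, the expected number reached 14 at 1900 early regions when taken from 36 h and at all 1915 from proliferation. Nearly every early region thus reached it, and the count over all 30823 regions is not given. From 36 h the median was 19.5 fragments, with a median chance of a call of 92.0%. A region was termed detectable where that chance was at least 99%. The observed summit of a called peak was taken as the true level, although peaks are called where counts are high. Only the summit was required to pass, and no peak length was required. The chances and the numbers of detectable regions may therefore be too high.

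From the 36 h summits, 369 early regions (19.3%) were detectable at 72 h. They made up 1.59% of the 23166 regions with a detectable 36 h peak. The count depended on the settings: it was 157 with a stricter chance of a call, 199 with depth alone in place of the change at retained regions, and 681 at the median background of 72 h peaks. It was 338 with a background at least that of the region itself, a setting added after seeing the data. Of the 369, 182 had no 72 h peak within 1 kb and 122 none within 5 kb. From the proliferation summits 983 early regions (51.3%) were detectable, which was 3.91% of 25158 such regions, and 299 of them had no 72 h peak within 5 kb. Both estimates were met by 245 early regions (12.8%), of which 128 had no 72 h peak within 1 kb and 89 none within 5 kb. They made up 1.20% of the 20355 regions that met both. The absence of a 72 h call is what chose these regions, so their numbers are a description and do not show a lower level at 72 h. The 72 h list gives no signal below its calling limit, so the level at 72 h in any early region was not measured.

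A rule written with earlier results in view named the 10 early regions that ranked highest in both lists and had no 72 h peak within 5 kb. At each of these 10, fewer fragments above background per depth were found at 36 h than in proliferation, with ratios of 0.413 to 0.925. A ratio under 1 was usual for early regions, whose upper quartile was 0.975. From the 36 h summit, 28 to 38.6 fragments were expected at 72 h. The region at chr2:16604612-16604866 (255 bp) had 34 fragments at 36 h and 31 in proliferation, and the nearest 72 h peak was 54.6 kb away. The region at chr17:56339337-56339603 (267 bp) had 33 fragments at 36 h and 36 in proliferation, with the nearest 72 h peak at 13.3 kb. The region at chr6:132413647-132413909 (263 bp) had 32 fragments at 36 h and 42 in proliferation. It lay 641 kb from any other peak of any stage.

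The region at chr1:45007973-45008218 (246 bp) had 30 fragments at 36 h and 27 in proliferation, 64.5 kb from a 72 h peak. The region at chr11:25000019-25000278 (260 bp) had 26 fragments both at 36 h and in proliferation and lay 1185 kb from any other peak of any stage. The region at chr9:70653890-70654140 (251 bp) had 25 fragments at 36 h and 27 in proliferation, 28.1 kb from a 72 h peak. These 6 regions formed a narrow group: their 36 h and proliferation summits differed by at most 8 bp, and 5 of the 6 had no other peak of any stage within 25 kb. They stood at the genome background at 36 h, as did all 10.

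The other 4 were wider, and their summits were 19 to 189 bp apart between 36 h and proliferation. The region at chr13:55565603-55566720 (1118 bp) had 29 fragments at 36 h and 35 in proliferation. The region at chr5:66591534-66591917 (384 bp) had 26 at 36 h and 33 in proliferation. The region at chr2:158593875-158594698 (824 bp) had 27 at 36 h and 39 in proliferation. The region at chr4:11117491-11118325 (835 bp) had 24 fragments at 36 h and 48 in proliferation, the lowest ratio of the 10 at 0.413. Each of these 4 had another 36 h peak nearby, at 0.260 to 1.14 kb.

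**Figure D2:**
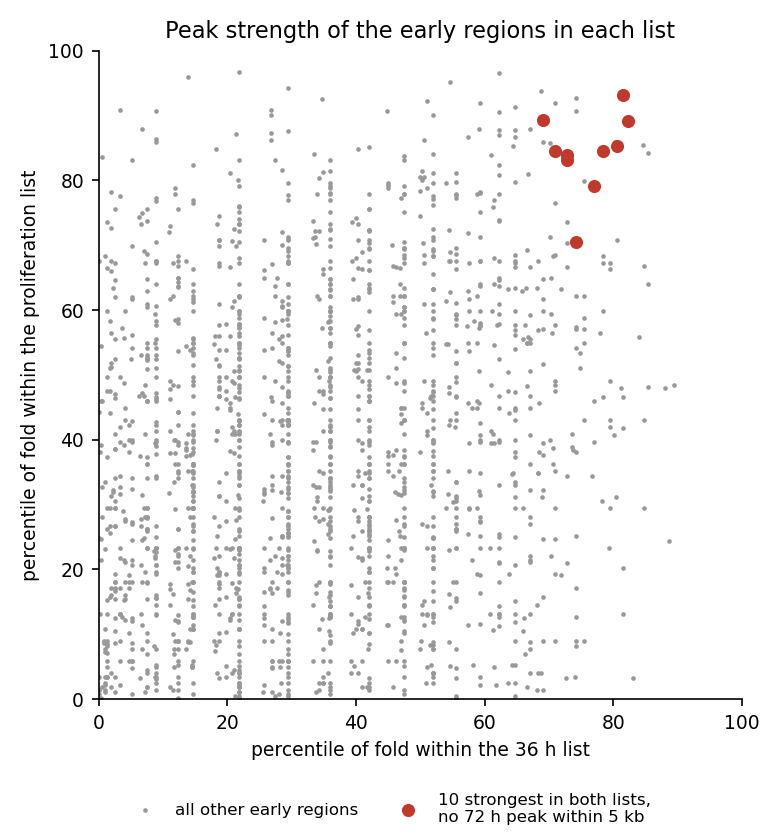
Percentile of the authors' fold within the 36 h list (x axis) and within the proliferation list (y axis) for the other early regions (grey) and for the 10 highest in both lists with no 72 h peak within 5 kb (red). Most points lie in the lower part of the 36 h axis, and vertical lines of points are regions with the same whole number of fragments at the same background.

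The narrow form with coinciding summits was not typical of the early regions as a whole. Summits within 10 bp were present in 175 early regions (9.14%) and in 9.91% of retained regions. Of the 527 early regions under 300 bp wide, 91 (17.3%) had such summits, as did 86 (20.7%) of the 416 retained regions under 300 bp. With no other peak of any stage within 25 kb as a further condition, 19 early regions and 9 retained regions were left. These conditions were set after the 10 regions had been seen and are given as a description.

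By width, the longest early region was chr4:135699778-135702200 (2423 bp), with 25 fragments at 36 h and 65 in proliferation, a ratio of 0.286, at 212 bp from a 72 h peak. Next was chr4:95166638-95168793 (2156 bp), with 28 fragments at 36 h and 30 in proliferation, 15.5 kb from a 72 h peak. The next, chr6:4469872-4471926 (2055 bp), had 22 fragments at 36 h and 27 in proliferation. It lies in the stretch of chromosome 6 described further on. After it, chr3:15153190-15154979 (1790 bp), went the other way, with 27 fragments at 36 h and 12 in proliferation, a ratio of 1.97. The last of the 5, chr1:135191322-135193097 (1776 bp), had 14 fragments at 36 h and 32 in proliferation, a ratio of 0.337, and lay 65.0 kb from a 72 h peak. The signal at 36 h thus was lower than in proliferation in 4 of the 5 widest and higher in 1. A lower signal was also usual over all early regions (median ratio 0.761).

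By the fragments expected at 72 h, 4 of the first 5 early regions lay on sequence not placed on a chromosome, where the local background at 36 h was 14 to 35 in the scaled pileup units of the peak caller. In all, 11 early regions came from this unplaced sequence, which held 35 regions with peaks in proliferation and at 36 h (31.4% early). Their background was 12.8 times the genome background at the median at 36 h and 9.89 times in proliferation, and at 36 h it was above the 3 units assumed as background at 72 h in those 4 regions. The remaining one of the first 5, chr12:11227663-11228360 (698 bp), had 46 fragments at 36 h and 15 in proliferation, a ratio of 2.74, and lay 184 bp from a 72 h peak.

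Most early regions were close to acetylation that was still called at 72 h. The gap to the nearest 72 h peak was 567 bp at the median (interquartile range 215 to 6330 bp). A 72 h peak lay within 1 kb of 1079 early regions (56.3%) and within 5 kb of 1379 (72.0%), and 88 had none within 50 kb. For regions called only at 36 h, 52.8% lay within 1 kb and 74.9% within 5 kb, and for those called only in proliferation 52.9% and 70.5%. For regions with peaks in proliferation and at 72 h but not at 36 h, the gap to the missing stage was wider, with a median of 2552 bp to the nearest 36 h peak and 59.0% within 5 kb.

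The 72 h peaks within 1 kb of early regions were usually on 1 side. Within 1 kb, 947 early regions (49.5%) had a 72 h peak on 1 side and 132 (6.89%) had them on both sides. Within 5 kb the numbers were 906 (47.3%) and 473 (24.7%). Sides were not counted for the other classes. Of the 1379 early regions with a 72 h peak within 5 kb, the nearest such peak belonged to a retained region in 985 cases (71.4%), whereas 38.2% of all 72 h peaks were in retained regions. It was in a region called at 36 h and 72 h in 11.2%, and in a region called only at 72 h in 9.79%. Such classes hold 29.1% and 27.8% of all 72 h peaks. In 104 cases (7.54%) it was in a region called in proliferation and at 72 h, a class that holds 4.89% of all 72 h peaks. The share was thus above that of all 72 h peaks in both classes with a proliferation peak. The gap in these cases is between separate peaks, since any overlap would have placed the region among the retained ones.

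**Figure D3:**
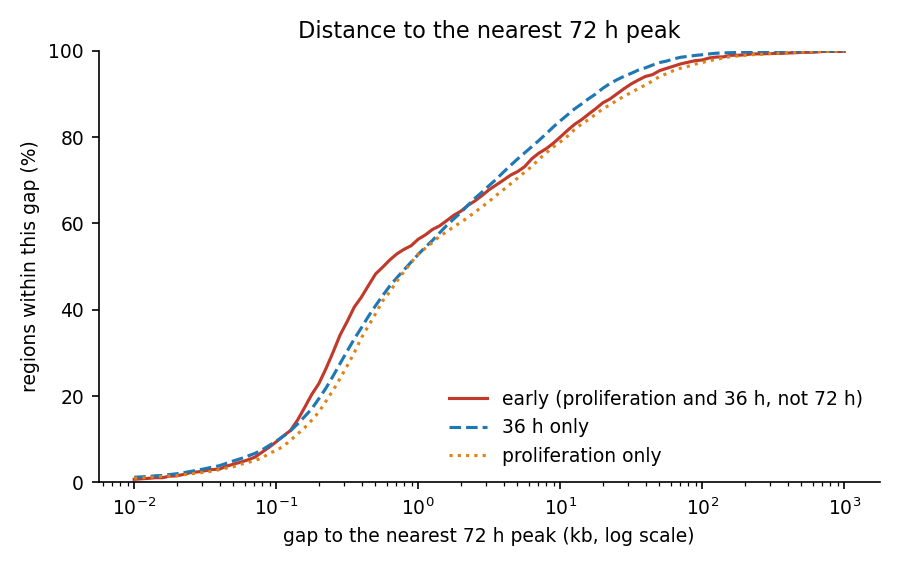
Share of regions (y axis, %) whose gap to the nearest 72 h peak was at most the distance on the x axis (kb, log scale), for early regions (solid), regions called only at 36 h (dashed) and regions called only in proliferation (dotted). All 3 curves pass 50% before 1 kb, and 56.3% of early regions lie within 1 kb.

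At the limit of the rule the difference was a matter of a few bases. A 72 h peak began directly next to 3 early regions, at a gap of 0 bp, and 14 had a gap of at most 10 bp. The region at chr12:81046178-81046706 (20 fragments at 36 h and 19 in proliferation) is one of those with a gap of 0, and chr7:119324222-119324571 (13 fragments at 36 h and 18 in proliferation) had a gap of 2 bp. On the other side, 12 retained regions held a 72 h peak that overlapped the proliferation or 36 h peaks by only 1 to 10 bp. The shortest overlap, 2 bp, was at chr1:194607445-194607638, with 16 fragments at 36 h and 19 in proliferation. Within 147 bp of the limit there were 290 early regions and 473 retained regions.

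The surroundings of early regions were acetylated at each stage. At 1 to 5 kb from the centre of an early region, 12.4%, 13.7% and 11.5% of bases were under peaks in proliferation, at 36 h and at 72 h. At 5 to 25 kb the values were 6.26%, 8.38% and 7.69%. Around retained regions 10.4%, 15.7% and 16.7% of bases at 1 to 5 kb were under peaks at the 3 stages. In this window early regions had more bases under peaks than retained regions in proliferation and fewer at 36 h and 72 h. Distance was taken from the centre. Retained regions were wider (median 1119 bp, widest 26240 bp) than early regions (390 bp, widest 2423 bp). The own peaks of wide retained regions thus count within the window, so the difference is not one of flanks alone. Around regions called in proliferation and at 72 h but not at 36 h, the values at 1 to 5 kb were 9.34%, 6.90% and 10.5%, lowest at the stage whose call they lack. In early regions, too, the near flanks were lowest at the stage whose call they lack, by a smaller margin. Both classes leave out by rule any region that a peak of that stage touches, which bears on these near values. At 5 to 25 kb from early regions the 72 h value (7.69%) was above that of proliferation (6.26%). The total length under peaks differs between the lists and enters these values.

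**Figure D4:**
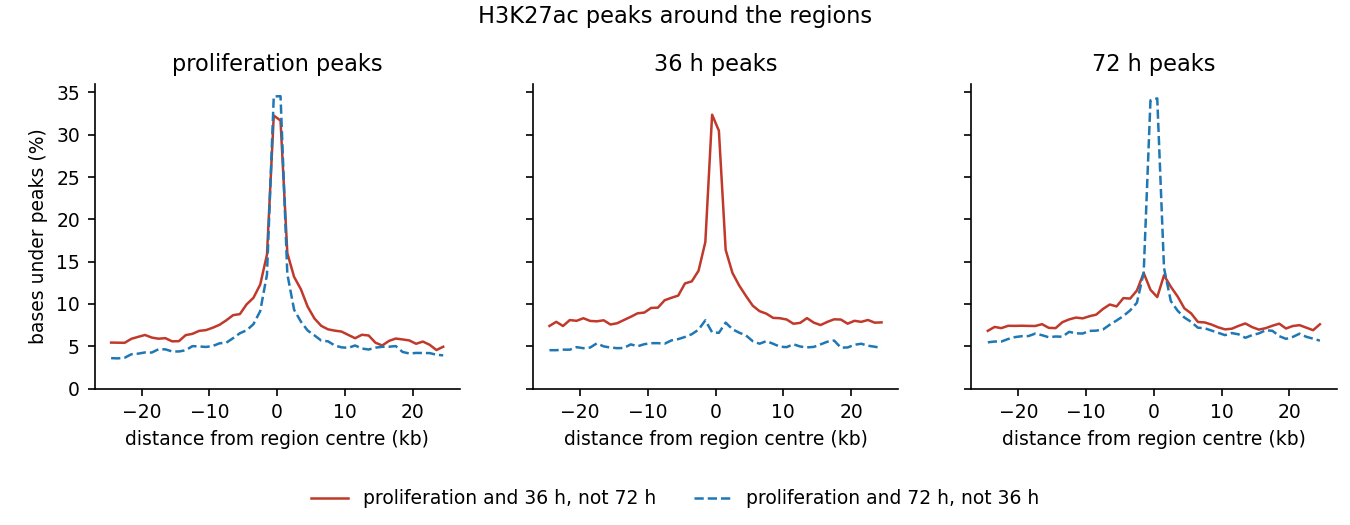
Bases under H3K27ac peaks (y axis, %) in 1 kb bins by distance from the region centre (x axis, kb), for the peaks of proliferation, 36 h and 72 h. The solid line is early regions and the dashed line regions called in proliferation and at 72 h but not at 36 h. Each line peaks at the centre where the region was chosen to have a peak. At 1 to 5 kb early regions had 13.7% of bases under 36 h peaks. The value was 6.90% around the other class, which was chosen to have no 36 h peak.

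Early regions occurred on each of chromosomes 1 to 19 and X. Their share of the regions with peaks in proliferation and at 36 h ranged from 4.73% on chromosome 19 to 7.55% on chromosome 1, with 7.49% on chromosome 6. Another early region lay within 5 kb of 400 early regions (20.9%). This share was lower than that of each other class, which was 37.6% for regions called in proliferation and at 72 h only, 61.1% for retained regions and up to 65.5% for regions called at 36 h and 72 h. The classes differ in size, which bears on it. Stretches of at most 50 kb with 3 or more early regions numbered 83 and held 306 of them (16%): 50 stretches held 3, 21 held 4, 9 held 5, and the remaining 3 held 6, 7 and 14.

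The stretch with 14 early regions was chr6:4452207-4487488, 35.3 kb long. In it 21.5, 20.6 and 8.08 kb were under peaks in proliferation, 36 h and 72 h, in 35, 29 and 8 peaks. Outside the early regions, which have no 72 h peak by definition, 13.9, 12.6 and 8.08 kb were under peaks at the 3 stages. Of its 34 merged regions, 30 had no 72 h peak: 14 early regions, 11 called only in proliferation and 5 called only at 36 h. The first 10 kb had peaks at every stage, with 8.82, 9.28 and 7.53 kb under peaks at the 3 stages. The remaining 25.3 kb had 12.7, 11.3 and 0.547 kb, in 30, 25 and 2 peaks. The early regions are included in these values for the 2 parts, which lowers 72 h relative to the earlier stages by construction. A gap of 16.5 kb with no 72 h peak held 18 peaks of 36 h, 15 of proliferation and 10 of the 14 early regions. Past the end of the stretch the next 72 h peak was 14.4 kb away. That side had few peaks at any stage: the 50 kb past the end held 0, 1 and 3 peaks of proliferation, 36 h and 72 h.

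Within this stretch the early regions were individually weak. Their authors' fold was 3.82 to 7.69 at 36 h and 3.28 to 6.97 in proliferation, with 13 to 24 fragments at 36 h and 16 to 32 in proliferation. The ratio of 36 h to proliferation signal was 0.491 to 1.05, and 12 of the 14 were under 1. Over all early regions the upper quartile of this ratio was 0.975, so ratios under 1 were not particular to the stretch. The strongest at 36 h was chr6:4464573-4465291 (719 bp), with 24 fragments at 36 h and 21 in proliferation. The strongest in proliferation was chr6:4462073-4462626 (554 bp), with 20 fragments at 36 h and 32 in proliferation. The lowest ratio, 0.491, was at chr6:4474798-4475031 (234 bp), with 15 fragments at 36 h and 23 in proliferation. At 72 h, 3 of the 14 were detectable from the 36 h summit and 11 from the proliferation summit. Merging peaks across gaps of up to 1 kb joined these regions to neighbours with a 72 h peak, and none of the 14 was then left as an early region.

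**Figure D5:**
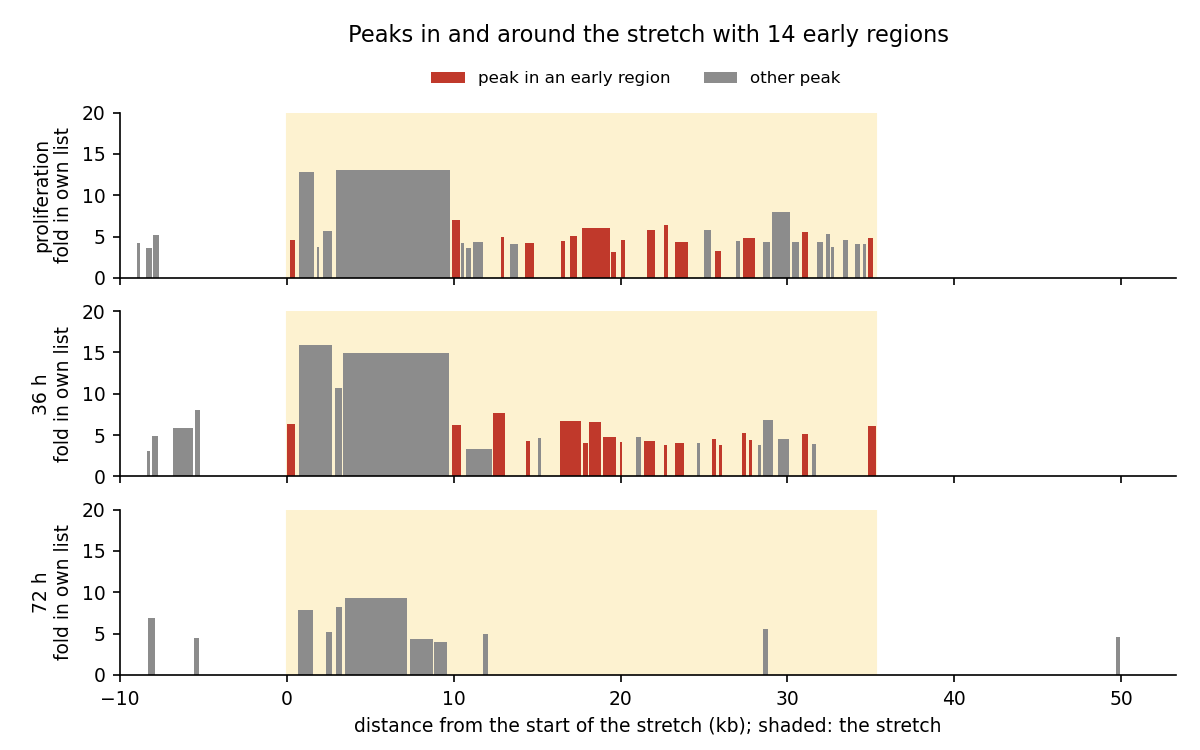
Peaks of proliferation, 36 h and 72 h (top to bottom) along the stretch of chromosome 6 with 14 early regions (shaded), by distance from its start (x axis, kb). Bar width is the peak, bar height the authors' fold in its own list, and red bars are peaks in early regions. Beyond the first 10 kb, 2 peaks were called at 72 h against 25 at 36 h and 30 in proliferation. These numbers include the peaks in early regions, which have no 72 h peak by definition.

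The next stretch, chr1:45366913-45398641 (31.7 kb, 7 early regions), had a similar layout. Its first 10 kb held 4.84, 6.10 and 5.47 kb under the peaks of proliferation, 36 h and 72 h. The other 21.7 kb held 2.74, 3.59 and 0 kb. Early regions, which have no 72 h peak by definition, are included in these lengths. The early regions there had 14 to 22 fragments at 36 h and 16 to 25 in proliferation, and 6 of the 7 lay in the part without a 72 h peak. At chr1:40281834-40331123 (49.3 kb, 6 early regions), 6.89, 6 and 1.67 kb were under peaks at the 3 stages. All 6 early regions had less signal at 36 h than in proliferation, with ratios of 0.341 to 0.774, and ratios under 1 were usual for early regions (upper quartile 0.975). The first of them, chr1:40281834-40282621 (788 bp), had 19 fragments at 36 h and 35 in proliferation.

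A stretch of 48.7 kb with 5 early regions on chromosome 18 had 6.35, 9.04 and 2.43 kb under peaks at the 3 stages. All 5 had a lower signal at 36 h than in proliferation, with ratios of 0.390 to 0.752, as was usual for early regions (upper quartile 0.975). At chr16:57515406-57562604 (47.2 kb, 5 early regions) 10.7, 11.5 and 9.64 kb were under peaks in proliferation, at 36 h and at 72 h. Its longest part without a 72 h peak, 19.8 kb, held 1 of the 5 early regions, so the others lay among peaks that were called at 72 h. The choice of stretches by their number of early regions, which have no 72 h peak by definition, lowers the length under peaks at 72 h relative to the earlier stages. With the early regions left out, the length under peaks at 72 h was 0.641, 0.799, 0.403, 0.343 and 0.897 of that at 36 h in the 5 stretches, in the order given. Set against proliferation it was 0.579, 1.19, 0.478, 0.752 and 1.02.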

How the data were processed

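H3K27ac ChIP-seq peak lists of 3 libraries (proliferation, 36 h, 72 h) were used, 1 per stage. The inputs were not analysed here. The submitters' processing notes name BWA, MACS2, deepTools and the build mm9. No source used here gives versions, settings or read totals. Peaks were called per library. The deposited fold enrichment (a ratio), the deposited −log10 p-value and −log10 q-value and the deposited score and summit offset are the authors' own per peak. The fold and q-value were used only within a list, and the score was not analysed.

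Whole summit fragments, local background and relative depth were solved from the deposited fold and −log10 p with MACS2's Poisson formulas. The deposited p was returned for 100% of peaks within a relative tolerance of 0.0003, and the step was tested on simulated data. The solved background assumes the genome size setting was the same in each run. Peaks overlapping by 1 bp were merged across stages (Python 3.11.15, pandas 2.3.3, SciPy 1.17.1). Intervals cover counting error only.

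Regions named were the 10 highest in both lists without a 72 h peak within 5 kb, the 5 widest, the 5 with the most fragments expected at 72 h, those nearest the rule's limit, and stretches of 50 kb with 3 or more. Members and lists were chosen with earlier results of these data known. Alternatives varied the q-value cutoff, list size, merging gap, overlap and the expected 72 h signal. Start sites and motifs were left out, because no genome or annotation of mm9 was used.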

Additional observations from a re-analysis of the deposited data

How the results depend on the processing

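The number of early regions depended on how the lists were treated. It was 1727 with a −log10 q of at least 5 in each list, 2770 with lists of equal number and 1695 when a 36 h and a proliferation peak had to overlap by at least 50% of the shorter. It was 573 with that q limit on the 36 h and proliferation lists alone, 789 with peaks merged across gaps of up to 1 kb and 836 with no 72 h peak allowed within 1 kb. Under these 6 settings, in the same order, the share of regions with peaks at 36 h and in proliferation was 7.60%, 10.4%, 5.50%, 2.52%, 3.65% and 2.71%. For the 50% overlap and for no 72 h peak within 1 kb, only the early regions were filtered. Their share was still taken of all 30823 regions, so it falls with their number. The median fold at 36 h was 6.02, 6.25, 5.03, 6.02, 5.09 and 4.99, and that in proliferation 6.19, 5.27, 5.03, 6.09, 5.14 and 5.08. The median width was 526, 499, 388, 476, 768 and 408.5 bp, and the share with a 72 h peak within 5 kb was 58.7%, 60.0%, 71.5%, 66.3%, 29.8% and 35.9%; the last 2 settings remove close 72 h peaks by construction, and the cause of the other shifts was not tested. The 10 named strong regions were early regions under all 6, which their choice by high fold and by distance from 72 h peaks favours in advance. The stretch of chromosome 6 held 7, 8, 12, 7, 0 and 10 early regions. Regions detectable from 36 h numbered 157 at a stricter chance of a call, 681 at the median 72 h background, 199 with depth alone and 338, in an alternative chosen after seeing the data, with a background at least that of the region itself. The median 36 h over proliferation signal was 0.732 relative to retained regions and 0.760 without subtracting background. No paired analysis was possible because each stage has 1 library. Shares of regions at start sites and with motifs were not run. The 14 to 20 fragments of a typical early region at 36 h (interquartile range) limit what a single region shows.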

Other observations

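No other peak of any stage lay within 50 kb of 42 early regions (2.19%), against 427 retained regions (1.48%). These 42 had a median width of 316 bp and a median fold of 6.02 at 36 h and 5.85 in proliferation, against 4.91 and 4.87 for all early regions. The 196 early regions with no other peak within 5 kb (10.2%, against 3494 or 12.1% of retained regions) had 5.21 at 36 h and 5.28 in proliferation, with a median width of 355 bp. The share without a neighbouring peak was thus the larger in early regions at 50 kb and the smaller at 5 kb. Retained regions with no other peak within 50 kb were 1084 bp wide at the median, with folds of 11.1 at 36 h and 7.82 in proliferation.

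Early regions with no 72 h peak within 5 kb (536 regions) had a median fold of 5.09 at 36 h and 5.18 in proliferation, and those with a 72 h peak within 1 kb had 4.78 at 36 h and 4.79 in proliferation. Among retained regions with a 36 h fold in the interquartile range of the early regions, the 72 h over 36 h signal was 1.38 and the 72 h over proliferation signal 0.951 at the median. These retained regions had to be called at 72 h, which sets a lower limit on that signal.

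The local background of the early region itself exceeded the background assumed at 72 h in 293 early regions (15.3%). With the region's own background, 4 of the 11 early regions on unplaced sequence were detectable, against 8 with the assumed one.

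The highest number of regions of a class within 50 kb was 14 for early regions, 15 for retained regions and 10 for regions called in proliferation and at 72 h but not at 36 h. It was 16 for regions called only in proliferation, 22 for those called only at 36 h and 30 for those called only at 72 h. The classes differ in size, from 1915 to 28908 regions.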
